A study of Homo sapiens with 8 samples.

Results

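The 50 genes described here carry cells through mitosis. They encode the CDK1 switch that starts mitosis, the mitotic and checkpoint kinases, the trigger of anaphase, the mitotic kinesins, proteins of the spindle and of cytokinesis, the transcription factors FOXM1 and MYBL2, and the chromosome proteins MKI67 and TOP2A. The genes were chosen by symbol for their part in mitosis, with earlier results of these data known. Each of the 50 matched 1 row of a table of 17649 genes. Shares over all genes are set beside them below as description, and the list as a set was not tested. Expression was measured by RNA-Seq in MDA-MB-231, a widely used line of human breast cancer cells negative for the estrogen receptor. A set of 4 cultures received 1 μM carboxymethyllysine (CML, sample titles NCML) for 48 hours, and 4 control cultures received PBS; all were held at 5 mM glucose. CML is an advanced glycation end product, a lysine altered by its reaction with sugars, and the comparison asks which transcripts differ in tumor cells exposed to it. The study used 1 cell line, 1 dose and 1 time in this experiment.

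Entry into mitosis is set by CDK1 bound to cyclin B (CCNB1, CCNB2). The kinases WEE1 and PKMYT1 hold CDK1 inactive and the CDC25 phosphatases release it. PLK1, AURKA and the motor proteins of the kinesin family then build the spindle, the checkpoint kinases BUB1, BUB1B and TTK delay anaphase until chromosomes are attached, and CDC20 with the anaphase-promoting complex starts the destruction of cyclin B and securin (PTTG1). PRC1, RACGAP1, ECT2 and ANLN act at the midzone and the contractile ring when the cell divides. Transcripts of most of these genes accumulate late in the cell cycle, so they are widely read as markers of proliferation, and several belong to proliferation scores used in breast cancer.

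Depth was similar between the groups. The steps between the deposited values gave an estimate of 16559853 to 17729481 reads per control library and 16161749 to 18954665 per CML library, and a member was backed by between 46 and 3433 estimated reads in a library. Genes that define MDA-MB-231 were high in every library (VIM, CD44, AXL and EGFR summed to between 6850 and 7363 CPM), while 4 genes that should be low (PGR, ERBB2, EPCAM and CDH1) summed to between 60.2 and 68.8 CPM. Most of that sum was ERBB2, with means of 49.5 CPM in control and 49.9 CPM in CML libraries, and EPCAM, with 14.2 and 14.9 CPM. CDH1 had means of 0.74 and 0.57 CPM and PGR of 0.028 and 0.013 CPM. Markers of other cell types were low in both groups: 6 of 6 fibroblast markers summed to between 14.5 and 16.1 CPM in control and between 15.1 and 20.4 CPM in CML libraries, 2 hematopoietic markers (PTPRC and CD14) to between 0.912 and 2.27 CPM in control and between 1.06 and 1.58 CPM in CML libraries, and 2 of 3 endothelial markers (PECAM1 and VWF) to between 3.53 and 3.96 CPM in control and between 3.11 and 3.78 CPM in CML libraries. None of these markers was at 0 in all 8 libraries. The fibroblast marker COL3A1 reached 3.35 CPM in CML library 3 and was at most 0.12 CPM in every other library. ESR1, CD3E and CDH5 were not analysed here.

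Mitotic transcripts were higher in CML-exposed than in control MDA-MB-231 cells. Of the 50 genes, 49 had a higher mean with CML, with a median increase of 17.3% and a median log2 fold change of 0.22, against 53.5% of all genes above 0 and a median of 0.0066 over all genes. At the false discovery rate of 0.3 that the study applied to this experiment, 17 of the 50 genes rose and 0 fell (limma on log2(CPM + 1), Benjamini-Hochberg adjustment over 17649 genes), and 0.674% of all genes rose by the same rule. These 17 genes were 14.3% of the 119 genes that rose, beside 39 genes that fell. No member, and no gene of the table, had an adjusted p under 0.05, although 1352 genes had an unadjusted limma p under 0.05. At that unadjusted threshold 40 members were higher, against 4.77% of all genes. In 30 of the 50 genes every CML library lay above every control library, which held for 2.5% of all genes. The same shares over all genes are the background of the counts by role and by list below. Nothing in the sources says more of the replicates than that they were 4 per group in flasks, so the p-values measure the spread between these cultures. In bulk RNA, more cells in mitosis and more mitotic transcript per cell cannot be told apart.

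**Figure D1:**
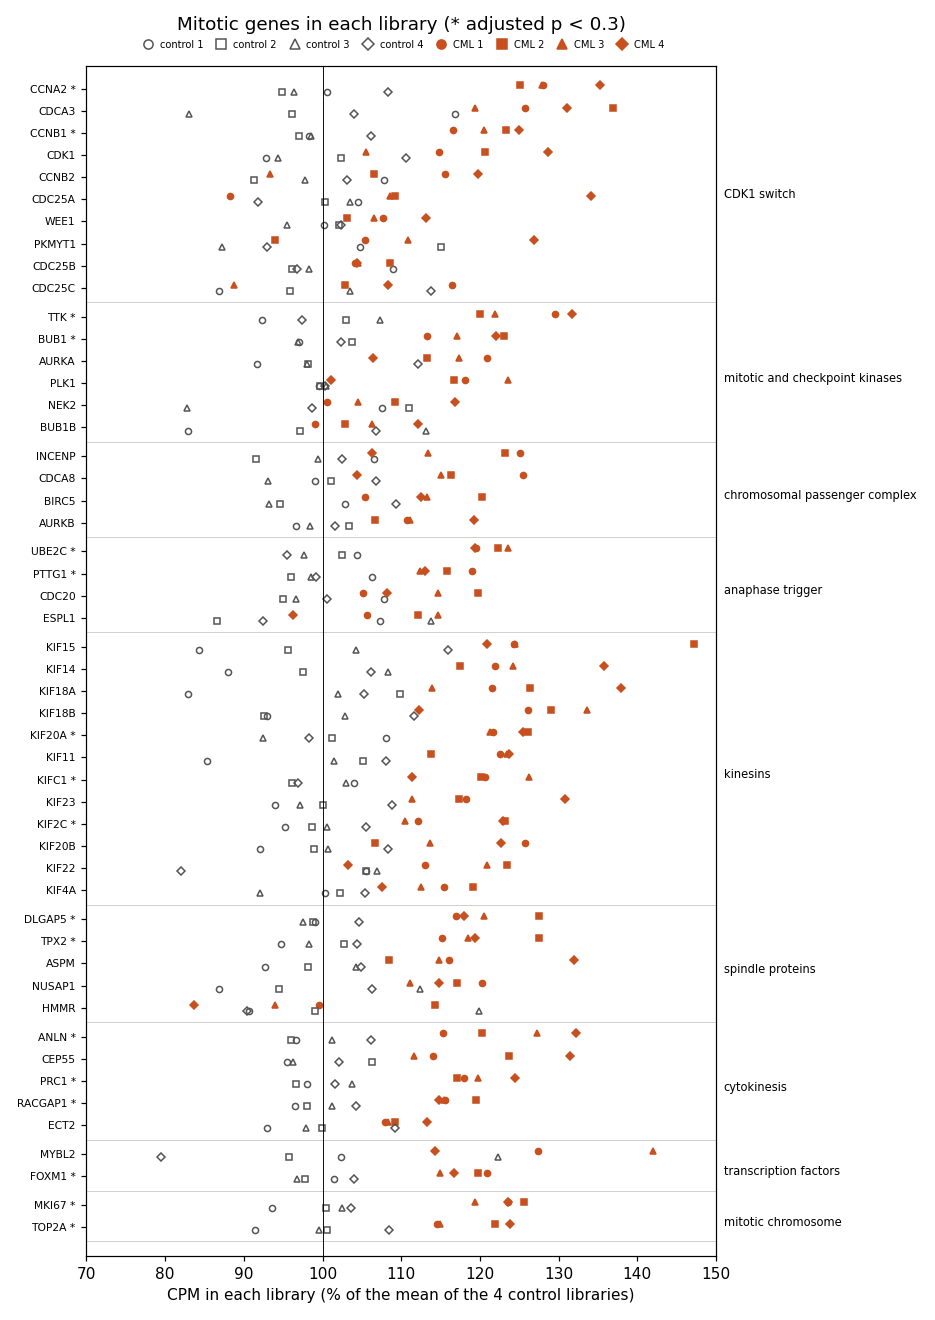
CPM of each of the 50 genes in each library, as a percentage of the mean of the 4 control libraries (x axis), with genes grouped by role and ordered by log2 fold change within a role. Open grey symbols are the 4 control and filled orange symbols the 4 CML libraries, a symbol shape is 1 replicate number, and an asterisk marks the 17 genes with an adjusted p under 0.3; in 30 genes all orange symbols lie to the right of all grey ones.

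The shift was present in each CML library. The median gene stood at 117%, 120%, 115% and 119% of its control mean in CML libraries 1 to 4, and at 97.5%, 98.8%, 99.0% and 104% in control libraries 1 to 4. The mean level over the 50 genes was 4.97 ± 0.030 in control libraries and 5.19 ± 0.019 in CML libraries (SD, n = 4) on the log2(CPM + 1) scale, a difference of 0.22. Control library 1 was the lowest of the 8 libraries for 22 genes, and CML library 4 the highest for 20 genes. The mean correlation of 2 members across the 8 libraries they share, after removing the group means, was 0.070 over 1225 pairs, beside 0.013 for other genes with at least 1 CPM. After correction for GC content and transcript length the mean for members was 0.0078, below that 0.013. The value of other genes after this correction was not computed. The median spread of a gene between libraries was 6.35% of its mean in control and 5.63% in CML cultures (coefficient of variation), against 4.12% expected from counting the estimated reads alone.

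The genes that passed the threshold were not among the lowest expressed. Their log2 fold changes lay between 0.20 and 0.36, an increase of 15.1% to 29.0%, with standard errors between 0.027 and 0.054. All 8 genes with a control mean under 15 CPM (a limit set after the values were seen) missed the threshold with standard errors between 0.094 and 0.14, among them MYBL2, which had the steepest log2 fold change of all members at 0.40. The lowest control mean of a gene that passed was 18.1 CPM (TTK). Adding 1 before taking the logarithm also understates the change of the lowest genes. Just inside the threshold were KIF2C (adjusted p = 0.286) and TOP2A (adjusted p = 0.293), and just outside it CEP55 (adjusted p = 0.334) and KIF14 (adjusted p = 0.346). Centring each library on its median ended the calls of TTK (adjusted p = 0.316), PTTG1 (0.336), KIF2C (0.421) and TOP2A (0.412). That left 13 of the 50, beside 37 of all 17649 genes that rose. The calls of KIF2C and TOP2A were also lost with a pseudocount of 0.1 (adjusted p = 0.301 and 0.307). When each library was left out in turn, 5 genes kept an adjusted p under 0.3 in all 8 fits: CCNA2, UBE2C, PRC1, MKI67 and DLGAP5. The number that passed fell to 5 of 50 without CML replicate 2, 8 without CML replicate 3 and 9 without control replicate 2. It was 11 without control replicate 3 and reached 30 without control replicate 4. In the same 5 fits the genes that rose, of all 17649, numbered 16, 35, 30, 56 and 536, so the counts over all genes changed too.

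**Figure D2:**
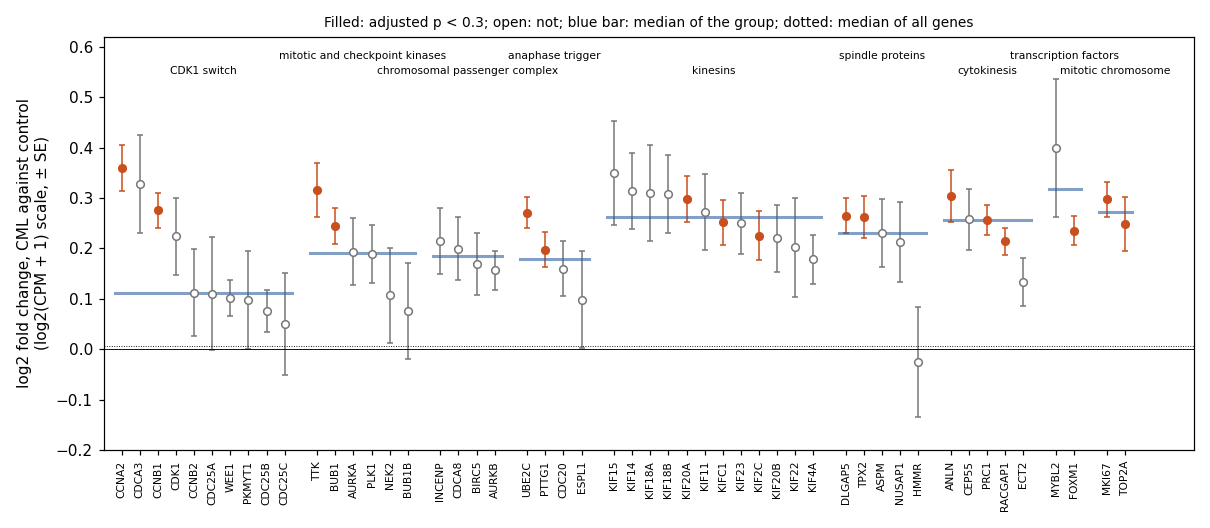
Log2 fold change of each gene, CML against control, with its standard error (y axis, log2(CPM + 1) scale, limma fit on 4 against 4 libraries), grouped by role. Filled orange points are the 17 genes with an adjusted p under 0.3, blue bars the median of a role, which runs from 0.11 for the CDK1 switch to 0.32 for the 2 transcription factors, and the dotted line the median of all genes at 0.0066; HMMR is the only point below 0.

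The promoters of these genes share sequence features known for genes of this class, so their frequency here is not independent of the choice. Genes expressed in G2 and mitosis are known to be bound by the DREAM complex and by MYBL2 with FOXM1 at a cell cycle genes homology region (CHR), often next to CCAAT elements that recruit NF-Y. RefSeq promoters of assembly GRCh38.p14, from 250 bases before to 50 after the start of transcription, were matched for 41 of the 50 genes; TTK, TPX2, UBE2C, FOXM1, WEE1, BIRC5, RACGAP1, PKMYT1 and AURKA had no entry. A CHR (TTTGAA or TTCGAA on either strand, so also TTCAAA) was present in 32 of 41 genes, or 78.0%, against 19.5% of 27305 genes and 15.5% of the 9815 genes with at least 1 CPM. Between 60 bases before and 10 after the start it was present in 63.4% of the 41 genes and in 4.85% of the 27305. A CCAAT element (CCAAT, or ATTGG on the other strand) was present in 87.8% of the 41 genes, 39.7% of the 27305 and 43.8% of the 9815, and in 69.2% of replication, 65.0% of kinetochore and 63.0% of other mitotic genes. Both elements were present in 70.7% of the 41 genes, 7.85% of the 27305 and 6.61% of the 9815. These are matches of letters, and no binding was measured here.

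The stretches below lie directly upstream of the start of transcription of genes that rose with CML and are written 5′ to 3′ on the strand of the gene, with CHR and CCAAT matches in capitals. They are shown for the placing of the 2 elements, which differs from gene to gene. PRC1 (chr15:90994536-90994655, minus strand) has 1 CHR and 1 CCAAT element. MKI67 (chr10:128126424-128126543, minus strand) has a pair of CHRs, of which the second overlaps a CCAAT element by 1 base. ANLN (chr7:36389742-36389861, plus strand) has adjoining CHRs on opposite strands and no CCAAT element. DLGAP5 (chr14:55191586-55191785, minus strand) has its upstream CHRs farther out, before both CCAAT elements. CCNB1 (chr5:69167030-69167149, plus strand) and CCNA2 (chr4:121823884-121824003, minus strand) hold CCAAT elements and no CHR of these letters.
PRC1: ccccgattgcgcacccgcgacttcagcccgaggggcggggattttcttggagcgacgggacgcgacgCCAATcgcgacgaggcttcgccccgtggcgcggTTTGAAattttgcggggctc
MKI67: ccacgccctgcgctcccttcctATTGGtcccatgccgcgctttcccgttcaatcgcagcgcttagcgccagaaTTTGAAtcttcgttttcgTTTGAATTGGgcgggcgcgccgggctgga
ANLN: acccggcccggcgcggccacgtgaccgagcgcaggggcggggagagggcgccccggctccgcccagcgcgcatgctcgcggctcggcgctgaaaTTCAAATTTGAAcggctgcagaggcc
DLGAP5: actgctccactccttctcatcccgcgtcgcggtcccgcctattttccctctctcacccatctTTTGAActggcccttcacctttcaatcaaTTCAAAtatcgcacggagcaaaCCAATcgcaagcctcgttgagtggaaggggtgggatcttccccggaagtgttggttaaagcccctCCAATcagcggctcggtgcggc
CCNB1: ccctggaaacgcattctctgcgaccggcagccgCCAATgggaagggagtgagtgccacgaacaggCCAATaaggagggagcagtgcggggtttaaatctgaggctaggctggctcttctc
CCNA2: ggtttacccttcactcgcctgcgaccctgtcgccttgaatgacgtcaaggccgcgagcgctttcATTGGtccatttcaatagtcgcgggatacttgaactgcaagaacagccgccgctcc

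Genes with and without a match to the CHR letters searched had similar median log2 fold changes. The median was 0.23 over the 32 genes with a match and 0.23 over the 9 without one. An adjusted p under 0.3 was reached by 7 of the 32 and 5 of the 9, and the difference between these shares was not tested. A CHR of other letters was not searched for, so the 9 genes cannot be taken as genes without a CHR. CHR matches were also found in 20 of 27 other mitotic genes and 9 of 20 kinetochore genes, but in 1 of 13 replication genes.

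**Figure D3:**
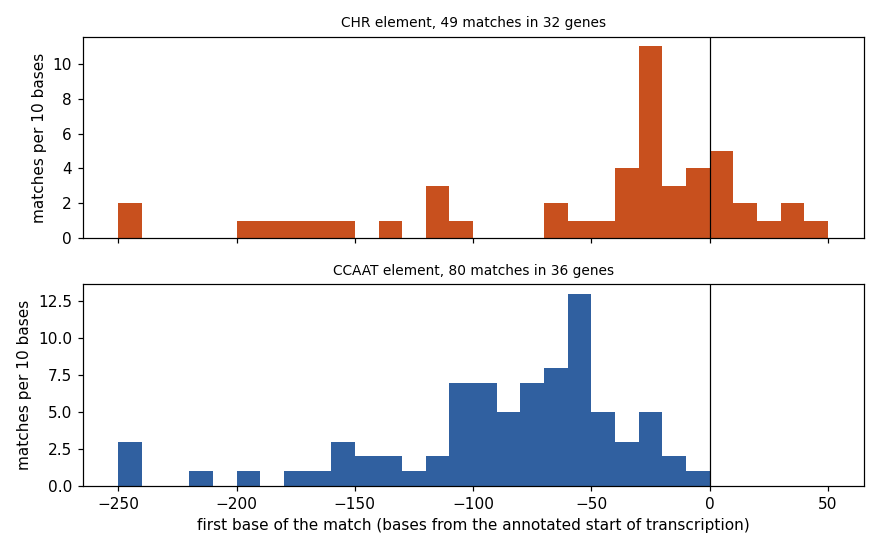
Position of the first base of each CHR match (upper panel, 49 matches in 32 genes) and CCAAT match (lower panel, 80 matches in 36 genes) relative to the annotated start of transcription (x axis, in bases; the vertical line is the start), as matches per 10 bases over all listed windows of the 41 genes (y axis). CHR matches gather just upstream of the start and CCAAT matches farther upstream; a gene with more than 1 listed start is counted in each window.

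In the CDK1 switch the cyclins CCNB1 and CCNA2 rose, and CCNB2, the other B-type cyclin, did not pass the threshold (log2 fold change 0.11 ± 0.086 SE, adjusted p = 0.879, groups overlapping). The kinases and phosphatases that act on CDK1 had log2 fold changes between 0.051 and 0.11, none past the threshold; differences between these genes were not tested. All 10 genes of this group had a higher mean with CML and 2 of the 10 rose, with a group median log2 fold change of 0.11. CCNB1, the main mitotic cyclin, measured 66.4, 65.6, 66.5 and 71.8 CPM in control libraries 1 to 4 and 78.8, 83.3, 81.4 and 84.4 CPM in CML libraries 1 to 4. Every CML library was above every control library, and the means were 67.6 ± 2.83 and 82.0 ± 2.47 CPM (SD, n = 4). The log2 fold change was 0.28 ± 0.035 (SE, adjusted p = 0.0889). CCNA2, the cyclin of S phase and early mitosis (chr4:121816444-121823883), measured 32.4, 30.6, 31.0 and 34.9 CPM in control and 41.2, 40.3, 41.2 and 43.6 CPM in CML libraries. It had the steepest log2 fold change of the genes that passed the threshold, 0.36 ± 0.046 (SE, adjusted p = 0.0897), again without overlap. Its exons overlap EXOSC9 on the other strand, so reads of the pair may be mixed if counting ignored strand. The same limit applies to KIF20A, KIFC1, KIF2C, RACGAP1, ANLN and FOXM1, which rose and have exons overlapping other genes on the other strand.

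CDC25B, a phosphatase that activates CDK1 and the most abundant gene of the group in CPM, measured 116, 102, 105 and 103 CPM in control and 111, 116, 111 and 111 CPM in CML libraries. The groups overlapped because control library 1 was the highest of all, and the log2 fold change of 0.077 ± 0.042 (SE) had an adjusted p of 0.760. The remaining genes had log2 fold changes between 0.051 (CDC25C, a phosphatase that activates CDK1, adjusted p = 0.990) and 0.33 (CDCA3, adjusted p = 0.460). CDK1 itself was at 30.1 ± 2.48 CPM without and 35.4 ± 2.93 CPM with CML (SD, n = 4), and had a log2 fold change of 0.22 ± 0.077 (SE, adjusted p = 0.530). The inhibitory kinase WEE1 had a log2 fold change of 0.10, and in it, as in CDCA3, the libraries of the groups did not overlap.

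**Figure D4:**
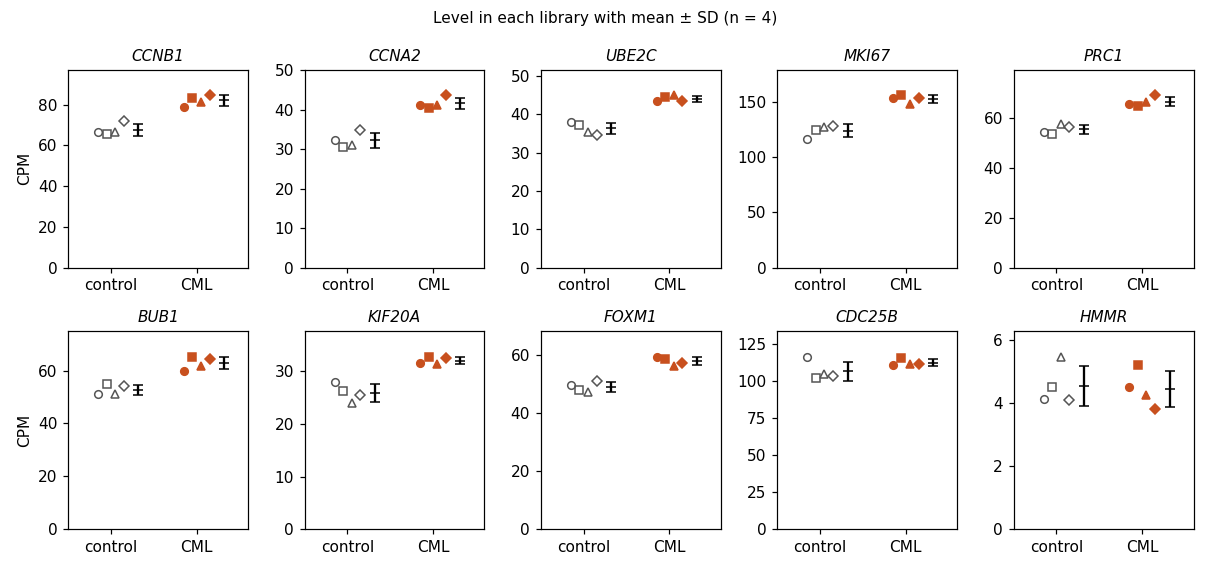
CPM of 10 genes in each library (y axis, starting at 0), with the 4 control libraries as open grey and the 4 CML libraries as filled orange symbols, and the mean ± SD of each group in black. In CCNB1, CCNA2, UBE2C, MKI67, PRC1, BUB1, KIF20A and FOXM1 all CML libraries lie above all control libraries; in CDC25B and HMMR the groups overlap.

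Among the mitotic and checkpoint kinases, BUB1 and TTK of the spindle checkpoint rose, and all 6 genes had a higher mean with CML (median log2 fold change 0.19). BUB1, which recruits checkpoint proteins to kinetochores and was the most abundant of these kinases in CPM, measured 51.2, 54.8, 51.2 and 54.1 CPM in control and 59.9, 65.0, 61.9 and 64.5 CPM in CML libraries. The lowest CML library exceeded the highest control library, with a log2 fold change of 0.25 ± 0.036 (SE, adjusted p = 0.128). TTK (MPS1), the kinase that starts checkpoint signaling, measured 16.8, 18.7, 19.5 and 17.7 CPM in control and 23.5, 21.8, 22.1 and 23.9 CPM in CML libraries. It was also free of overlap, at a log2 fold change of 0.32 ± 0.054 (SE, adjusted p = 0.179).

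The other 4 kinases did not pass the threshold. PLK1 and AURKA, the kinases of spindle assembly, had log2 fold changes of 0.19 (adjusted p = 0.478) and 0.19 (adjusted p = 0.542). PLK1 was the most even of all members in the control libraries, at 25.0 ± 0.121 CPM (SD, n = 4), and 28.8 ± 2.42 CPM with CML. BUB1B, at 0.076, was the lowest of the group; it overlaps the readthrough gene BUB1B-PAK6, so its count is uncertain.

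The chromosomal passenger complex, which corrects attachments of chromosomes to the spindle and guides cytokinesis, had 0 of 4 genes past the threshold, while all 4 had a higher mean and an unadjusted limma p under 0.05. CDCA8 (borealin), the most abundant of the subunits in CPM, measured 34.0, 34.7, 31.9 and 36.6 CPM in control and 43.1, 39.9, 39.5 and 35.8 CPM in CML libraries. CML library 4 fell inside the control range, and the log2 fold change was 0.20 ± 0.063 (SE, adjusted p = 0.489). The 4 log2 fold changes lay close together, from 0.16 for the kinase AURKB (adjusted p = 0.369) to 0.21 for the scaffold INCENP (adjusted p = 0.479), with BIRC5 (survivin) at 0.17 (adjusted p = 0.558). AURKB was the only one without overlap between the groups.

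Of the genes that trigger anaphase, UBE2C and PTTG1 rose. UBE2C (chr20:45812644-45816952), the ubiquitin-conjugating enzyme of the anaphase-promoting complex, measured 37.9, 37.2, 35.5 and 34.7 CPM in control and 43.4, 44.5, 44.9 and 43.4 CPM in CML libraries. The CML libraries lay within a narrow band above all controls, with a mean of 44.04 ± 0.770 against 36.3 ± 1.49 CPM (SD, n = 4) and a log2 fold change of 0.27 ± 0.031 (SE, adjusted p = 0.0856). PTTG1 (securin), the inhibitor of separase, measured 36.5, 32.9, 33.8 and 34.0 CPM in control and 40.8, 39.8, 38.6 and 38.8 CPM in CML libraries. The groups did not overlap (log2 fold change 0.20 ± 0.035 SE, adjusted p = 0.189), but PTTG1 has near-identical copies, PTTG2 and PTTG3P, and how reads were divided among them is not known.

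CDC20, the activator of the anaphase-promoting complex, measured 75.8, 66.8, 68.0 and 70.7 CPM in control and 73.9, 84.2, 80.6 and 76.0 CPM in CML libraries. Control library 1 lay within the CML range, and the log2 fold change of 0.16 ± 0.054 (SE) had an adjusted p of 0.516. ESPL1 (separase), the protease that cuts cohesin, had a log2 fold change of 0.10 (adjusted p = 0.903). Per kilobase of transcript, PTTG1, UBE2C and CDC20 were the most abundant of the 50 genes in control cells, at 48.0, 46.8 and 42.6 CPM per kilobase, and HMMR, PKMYT1 and CDC25A the least, at 1.505, 1.55 and 1.81.

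All 12 kinesins had a higher mean with CML, against 53.5% of all genes above 0. The groups did not overlap in 10 of 12, against 2.5% of all genes. At the threshold 3 rose, against 0.674% of all genes, and the median log2 fold change was 0.26 (20.2% higher means). KIF20A (MKLP2), which brings the passenger complex to the midzone, measured 28.0, 26.2, 23.9 and 25.5 CPM in control and 31.6, 32.7, 31.4 and 32.5 CPM in CML libraries. Its CML libraries differed by little more than 1 CPM and lay above all controls, for a log2 fold change of 0.30 ± 0.046 (SE, adjusted p = 0.145). KIFC1 (HSET), the minus-end motor that focuses spindle poles, measured 39.2, 36.2, 38.8 and 36.5 CPM in control and 45.5, 45.3, 47.6 and 42.0 CPM in CML libraries. The log2 fold change was 0.25 ± 0.044 (SE, adjusted p = 0.186), without overlap.

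KIF2C (MCAK), a microtubule depolymerase at centromeres and the most abundant kinesin of the list in CPM, measured 66.1, 68.5, 69.8 and 73.2 CPM in control and 77.9, 85.5, 76.7 and 85.4 CPM in CML libraries. All CML libraries were above the controls (log2 fold change 0.23 ± 0.048 SE, adjusted p = 0.286). The other 9 kinesins had log2 fold changes between 0.18 (KIF4A, adjusted p = 0.400) and 0.35 (KIF15, adjusted p = 0.460). KIF11 (Eg5) and KIF15 both push spindle poles apart, and KIF4A, which shortens midzone microtubules with PRC1, has the near-identical copy KIF4B and is therefore uncertain. KIF20B and KIF22 were the 2 kinesins whose groups overlapped.

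Among the spindle proteins, DLGAP5 and TPX2 rose and HMMR was the single member with a lower mean. DLGAP5 (HURP), which stabilizes kinetochore fibers (chr14:55148135-55191585), measured 36.97, 36.9, 36.4 and 39.0 CPM in control and 43.6, 47.6, 45.0 and 44.1 CPM in CML libraries. Its groups stood apart, with a log2 fold change of 0.27 ± 0.034 (SE, adjusted p = 0.0915). TPX2, the activator of AURKA and the most abundant spindle protein of the list in CPM, measured 113, 122, 117 and 124 CPM in control and 137, 152, 141 and 142 CPM in CML libraries. Here too the lowest CML library exceeded the highest control library (log2 fold change 0.26 ± 0.042 SE, adjusted p = 0.153).

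HMMR, a microtubule-associated hyaluronan receptor, measured 4.11, 4.49, 5.44 and 4.10 CPM in control and 4.52, 5.19, 4.27 and 3.80 CPM in CML libraries. The groups overlapped throughout, its log2 fold change was -0.025 ± 0.11 (SE, adjusted p = 1.00), and at 61 to 97 estimated reads per library it was also among the least counted members. ASPM and NUSAP1 had log2 fold changes of 0.23 and 0.21 (adjusted p = 0.453 and 0.577). NUSAP1 shares exon sequence with an unnamed protein-coding gene on the same strand, so its count is uncertain.

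Of the 5 cytokinesis genes, PRC1, RACGAP1 and ANLN rose, and the median log2 fold change was 0.26. PRC1 (chr15:90966040-90994535), the bundler of midzone microtubules, measured 54.3, 53.6, 57.5 and 56.3 CPM in control and 65.4, 64.9, 66.4 and 69.0 CPM in CML libraries. The groups were well apart, at 55.4 ± 1.81 and 66.4 ± 1.81 CPM (SD, n = 4), with a log2 fold change of 0.26 ± 0.029 (SE, adjusted p = 0.0856). PRC1 was the only member whose estimated reads were whole in none of the 8 libraries, and it shares exons with an unnamed protein-coding gene on the same strand and with PRC1-AS1, so its count is uncertain. RACGAP1, a subunit of centralspindlin, measured 40.3, 41.0, 42.3 and 43.5 CPM in control and 48.3, 49.9, 48.2 and 48.0 CPM in CML libraries. It had the smallest standard error of all members that passed, with a log2 fold change of 0.21 ± 0.027 (SE, adjusted p = 0.0898) and no overlap.

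ANLN (anillin), the scaffold of the contractile ring, measured 92.5, 91.9, 96.8 and 102 CPM in control and 110.4, 115, 122 and 126 CPM in CML libraries. The spread was wider in the CML group, which still lay above all controls (log2 fold change 0.30 ± 0.051 SE, adjusted p = 0.173). ECT2, the activator of RhoA at the division plane and the most abundant cytokinesis gene of the list in CPM, measured 115, 124, 121 and 135 CPM in control and 134, 135, 134 and 140.1 CPM in CML libraries. Control library 4 lay among the CML libraries, and the log2 fold change of 0.13 ± 0.047 (SE) had an adjusted p of 0.553. CEP55, which brings the abscission machinery to the midbody, had a log2 fold change of 0.26 without overlap.

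FOXM1, the forkhead factor that activates late cell cycle genes, rose. It measured 49.7, 47.9, 47.4 and 50.9 CPM in control and 59.2, 58.7, 56.3 and 57.2 CPM in CML libraries. The groups did not overlap, and the log2 fold change was 0.24 ± 0.028 (SE, adjusted p = 0.0889); FOXM1 shares exon sequence with ITFG2 on the other strand. MYBL2 (B-MYB), which binds with the MuvB core, was at 12.4 ± 2.20 CPM in control and 16.6 ± 2.02 CPM in CML cultures (SD, n = 4), and control library 3 exceeded CML library 4 (adjusted p = 0.533).

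Both chromosome proteins rose. MKI67 (chr10:128096659-128126423), the Ki-67 antigen that coats mitotic chromosomes and is used in pathology as a marker of proliferation, measured 116, 124, 127 and 128 CPM in control and 153, 155, 148 and 153 CPM in CML libraries. The mean was 23.0% higher with CML, from 124 ± 5.60 to 152 ± 3.21 CPM (SD, n = 4), at a log2 fold change of 0.30 ± 0.034 (SE, adjusted p = 0.0856). TOP2A, the topoisomerase that untangles sister chromatids and the most abundant of all 50 genes in CPM, measured 138, 152, 149.98 and 163 CPM in control and 173, 184, 173 and 187 CPM in CML libraries. Its groups did not overlap, with a log2 fold change of 0.25 ± 0.054 (SE, adjusted p = 0.293).

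Companion lists of cell division genes also had higher means with CML, and lists of the machinery that acts on cyclins and mitotic genes had medians nearer 0. Of 34 other mitotic genes, all 34 had a higher mean with CML and 9 rose, with a median log2 fold change of 0.20: SHCBP1 at 0.32 (adjusted p = 0.0604), SPAG5 at 0.24 (adjusted p = 0.0604), CKAP2 at 0.22 (adjusted p = 0.0889), CCNF, CDCA2, MELK, CIT, G2E3 and CKS1B. Of 24 kinetochore genes 23 were higher and 2 rose, NDC80 at 0.35 (adjusted p = 0.0802) and CENPQ at 0.33 (adjusted p = 0.186), with a median of 0.18. All 16 replication genes were higher and 3 rose, with a median of 0.16: CDC45, a subunit of the replicative helicase, at 0.43 (adjusted p = 0.0856), the nucleotide synthesis enzyme TYMS at 0.35 (adjusted p = 0.0980) and RRM2 at 0.39 (adjusted p = 0.278).

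Of 17 genes of the anaphase-promoting complex and its regulators 0 passed the threshold in either direction, 11 were higher, and the median log2 fold change was 0.036. An unadjusted limma p under 0.05 was reached by 2 of them, the inhibitor FBXO5 (EMI1) at 0.25 (adjusted p = 0.400) and ANAPC15 at 0.21 (adjusted p = 0.574). Of 11 genes of the MuvB and DREAM complexes, which bind the CHR, 0 passed, 7 were higher and the median was 0.018; LIN9 at 0.31 (adjusted p = 0.598) and LIN52 at 0.10 (adjusted p = 0.602) had the smallest p. Of 7 CDK inhibitors 0 passed and 0 had an unadjusted limma p under 0.05; CDKN2A and CDKN2B had at most 1 and 2 estimated reads in a library and could not be compared, and the median of the other 5 was 0.048, with CDKN1A (p21) at 0.048 (adjusted p = 0.750) and CDKN2C at 0.18 (adjusted p = 0.876). Median centring of the libraries ended 8 of the 14 calls in these lists, those of CENPQ, CCNF, CDCA2, MELK, CIT, G2E3, CKS1B and RRM2. Taking the replicate number as a block ended 6 of the 14 and quantile normalization 3. A minimum mean of 1 CPM and a fit without the variance trend ended 1 each. With 0.674% of all genes rising and 39 genes falling, 0 calls in lists of 17, 11 and 7 genes do not set them apart from other genes. Differences between the companion lists were not tested.

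**Figure D5:**
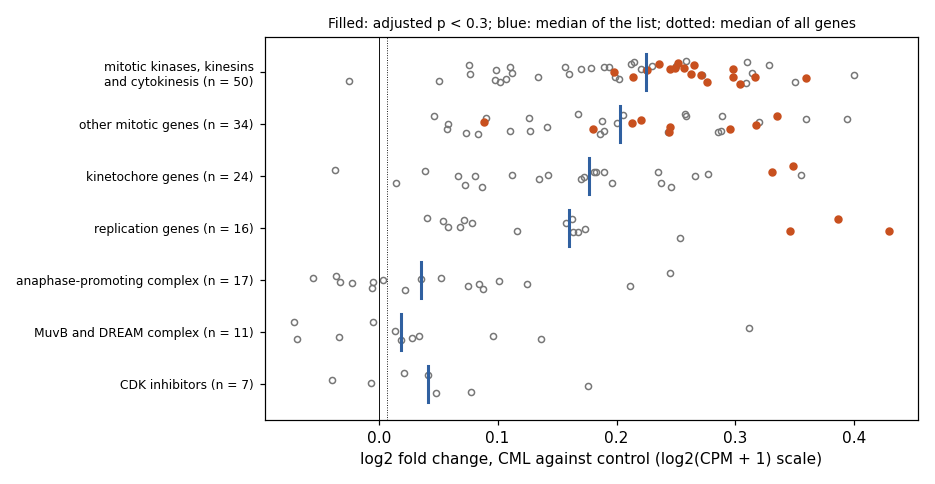
Log2 fold change of each gene, CML against control (x axis, log2(CPM + 1) scale), for the 50 genes and 6 companion lists (rows, with the number of genes). Filled orange points have an adjusted p under 0.3, blue bars are the median of a list and the dotted line is the median of all genes; the medians run from 0.22 for the 50 genes to 0.018 for the MuvB and DREAM complexes, the bar of the CDK inhibitors includes 2 genes with almost no reads, and vertical scatter within a row carries no value.

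The count of genes past the threshold changed with the genes fitted and with a correction for transcript composition. With genes under a mean of 1 CPM left out, 26 of the 50 rose, 12 at an adjusted p under 0.05, against 0.866% of 13047 genes that rose at 0.3. GC content of the canonical transcript ranged from 34.3% to 67.3% among the 50 genes, with a median of 46.0% against 47.9% over genes with at least 1 CPM. When, in addition to that filter, each library's values were regressed on GC content and transcript length, 40 of the 50 genes rose and 0 fell, 24 of them at an adjusted p under 0.05, against 4.26% of 12928 genes that rose at 0.3. All 17 genes that had risen in the fit to all genes were among the 40. The median log2 fold change of the 50 genes was 0.22 with the filter and 0.21 with the filter and regression.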

How the data were processed

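RNA-Seq libraries of 4 control and 4 CML-exposed MDA-MB-231 cultures were grouped by sample title; dose, time and glucose come from the labels and the study's methods. The authors deposited CPM values, 1 column per library, which the submitters' processing notes tie to edgeR and hg38; the study's methods describe TMM scaling in the tumor workflow and TMM-scaled CPM as input for its gene set analysis of tumors, xenografts and cell lines, and the aligner, counting tool, annotation and strand setting for these libraries are not given in the sources used here. The labels name both NextSeq and HiSeq instruments. Of the values above 0 and below a set limit of estimated reads, 84.3% to 85.2% were whole reads (tolerance 0.05), so no count test was run. The share was not computed over higher values. In the 8 libraries 1 read was worth 0.0535 to 0.0622 CPM.

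Rows of the same symbol were averaged (17681 rows, 17649 genes). log2(CPM + 1) was fitted with limma 3.58.1 (R 4.3.3, variance trend, 2-sided tests, Benjamini-Hochberg adjustment over all genes), after tests on simulated data. A gene was called at an adjusted p under 0.3, with 0.05 beside it. GC content, transcript length and overlaps came from GENCODE annotation of GRCh37, and positions and promoters from RefSeq GRCh38.p14, the assembly of hg38. The alternatives tried were median centring, a minimum mean of 1 CPM, 0.1 as pseudocount, quantile normalization, GC and length correction (with the same minimum mean), the replicate number as a block, no variance trend, and each library left out in turn.

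Values in every library were given for members with an adjusted p under 0.3, the 10 with the smallest p, up to 3 with the smallest p among those lower with CML, and the most abundant of each role; 1 or 2 others per role were named at the ends of its range, and of companion lists the called genes and the 2 with the smallest p. CCNB2, CDK1, WEE1, PLK1, AURKA, BIRC5, KIF11, KIF20B, KIF22, ASPM, NUSAP1, CEP55, KIF14 and MYBL2 were named outside this rule, after their values were seen, as were the members named as least abundant per kilobase. The members and lists were chosen with earlier results of these data known.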

Additional observations from a re-analysis of the deposited data

Results flagged for a closer look

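In 102 groups of 4 libraries (the 50 genes and their mean level, in control and in CML cultures), 7 had a highest or lowest library that stood apart from the other 3 by Dixon's test at the 95% level, where chance gives about 1 in 20, or 5.1. CML replicate 2 was the library set apart in 4 of the 7. It was the highest for CDC25B at 115.7 CPM (the others 111.0 to 111.5), for KIF15 at 18.03 CPM (14.8 to 15.2) and for RACGAP1 at 49.9 CPM (48.0 to 48.3), and the lowest for KIF11 at 45.4 CPM (48.9 to 49.3). Control replicate 4 was the highest for CCNB1 at 71.8 CPM (65.6 to 66.5) and the lowest for KIF22 at 24.1 CPM (30.9 to 31.4). Control replicate 1 was the highest for CDC25B at 116.1 CPM (102.5 to 104.7).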

How the results depend on the processing

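Over all alternatives the median log2 fold change of the 50 genes lay between 0.20 and 0.25 and the difference in their mean level between 0.20 and 0.23, while the counts of called genes varied more. Called members numbered 17, and 13 after median centring, 15 with a pseudocount of 0.1, 16 without the variance trend, 17 after quantile normalization and 26 with a minimum mean of 1 CPM. GC and length correction, which also carries that minimum, gave 40, and 40 with the replicate block added. Leaving out 1 library gave 5 to 30, the lowest without CML replicate 2 and the highest without control replicate 4. Over all genes 158 were called, 53 after median centring, 141 with the minimum mean alone, 876 with GC and length correction, 935 with the replicate block and that correction, and 20 to 690 when a library was left out. The share of calls that were higher was 75.3%, and 62.5% after quantile normalization and 62.9% with GC and length correction. The cause of these changes was not tested; the fits with a minimum mean hold 13047 genes and those with the correction 12928, against 17649. The sign of the log2 fold change turned for CDC25C (-0.0061) and BUB1B (-0.0065) without control replicate 1, and for HMMR without control replicate 3 (0.050) and without CML replicate 4 (0.034); over all fits that left out a library they ranged from -0.0061 to 0.12, from -0.0065 to 0.14 and from -0.089 to 0.050. In 800 refits of single members 668 kept direction and side of the threshold, 73 passed it newly, 55 lost it and 4 turned. Same-numbered libraries correlated at 0.199, -0.0303, -0.0645 and 0.334, so the numbers were not taken as pairs; the replicate block gave 19 called members, with TTK no longer among them (adjusted p = 0.357), and 189 called genes, and libraries 1 and 4, but not 2 and 3, matched best with their own number.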
